A study of Mus musculus with 6 samples.

Results

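A group of 8 mature microRNAs (miRNAs) best known from leukocytes was followed in small RNA libraries of mouse dermal fibroblasts. They are both arms of miR-142a (mmu-miR-142a-5p and mmu-miR-142a-3p), of miR-223 (mmu-miR-223-5p and mmu-miR-223-3p) and of miR-511 (mmu-miR-511-5p and mmu-miR-511-3p), together with mmu-miR-342-3p and mmu-miR-150-5p. The prefix mmu, for mouse, is left out from here on. They were chosen by name, with earlier results of these data known, and all 8 are among the 1907 miRNA names counted in each library. The study compared primary fibroblasts from the skin of newborn mice of genotype Col1a2Cre-caNrf2 (3 libraries) with those of genotype Col1a2Cre-wt (3 libraries, ctrl). Both groups carry Cre recombinase driven by Col1a2, a collagen gene active in fibroblasts. The caNrf2 group also carries a constitutively active mutant of Nrf2, a transcription factor known for switching on antioxidant and detoxification genes. Both groups had a mixed background of 50% C57Bl/6 and 50% FVB/N. Each library came from the cells of a different mouse, grown for 6 days and taken at passage 1. Cre driven by Col1a2 limits the mutant to cells that use that promoter, whereas the RNA came from the whole culture.

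A miRNA is cut from a hairpin precursor into a 5p and a 3p arm, and bases 2 to 8 of an arm, the seed, pair with target mRNAs. miR-142 is made in all lineages of blood cells and is scarce in most other cells. miR-223 belongs to the myeloid lineage, where it restrains granulocyte production and the inflammasome sensor Nlrp3. miR-511 is made from an intron of Mrc1, the gene of the macrophage mannose receptor (CD206), and is known from macrophages and dendritic cells. miR-342 is made from an intron of Evl, a regulator of actin filaments, and is found in lymphoid and myeloid cells. miR-150 belongs to mature lymphocytes, where it represses the transcription factor Myb. Newborn skin contains resident macrophages, Langerhans cells and mast cells.

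The mature sequences show how far the leukocyte miRNAs differ from each other, which bears on whether reads of 1 could be counted for another. RefSeq (GRCm38.p6) gave sequences for 6 of the 8, printed 5′ to 3′ with the seed in capitals.
miR-142a-5p: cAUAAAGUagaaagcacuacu
miR-142a-3p: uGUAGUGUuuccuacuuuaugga
miR-223-3p: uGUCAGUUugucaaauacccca
miR-223-5p: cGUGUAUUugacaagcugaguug
miR-511-3p: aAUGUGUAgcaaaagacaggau
miR-342-3p: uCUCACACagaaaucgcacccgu
The 6 seeds all differ, and no other mature miRNA in the RefSeq table has any of these seeds or an identical mature sequence. Reads counted for 1 of them therefore carry another sequence than reads counted for any other.

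The precursors lie on 5 chromosomes (mm10, GENCODE M21). Mir142 is at chr11:87756864-87756927 on the plus strand, in an intron of its host RNA Mir142hg. Mir223 is at chrX:96242817-96242926 on the plus strand, in an exon of the noncoding RNA F630028O10Rik. Mir511 is at chr2:14261003-14261081 in an intron of Mrc1, and Mir342 at chr12:108658620-108658718 in an intron of Evl, each on the strand of its host. Mir150 is at chr7:45121757-45121821 on the plus strand and overlaps no other annotated gene. Both arms of a pair come from 1 precursor and are not independent of each other. The hairpins that gave rise to the called miRNAs are printed with their mature arms in capitals (for Mir511, the 3p arm).
Mir142: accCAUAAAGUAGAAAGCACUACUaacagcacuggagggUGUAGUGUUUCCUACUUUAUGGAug
Mir223: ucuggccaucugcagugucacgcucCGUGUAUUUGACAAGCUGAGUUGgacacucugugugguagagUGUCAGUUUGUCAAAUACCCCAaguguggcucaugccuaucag
Mir511: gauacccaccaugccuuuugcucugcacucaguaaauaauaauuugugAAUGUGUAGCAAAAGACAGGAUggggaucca
On the minus strand of the Mir142 locus, RefSeq places miR-142b at chr11:87756906-87756925, opposite the 3p arm, with the sequence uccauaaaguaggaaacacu. It had 0 counts in every library, which allows up to 0.106 to 0.287 CPM (counts scaled to a library of 1000000), from 3 counts of each library's total.

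Library totals ranged from 13733970 to 28237159 counts in caNrf2 and from 10443268 to 20595024 in ctrl, and 3 counts are the floor below which a level is not distinguished from 0. Levels below are CPM scaled by edgeR's TMM factors. Differences were tested by edgeR's quasi-likelihood test over the 697 miRNAs with enough counts, and a miRNA was called when its Benjamini-Hochberg adjusted p lay under 0.05. The miRNAs known from fibroblasts and other mesenchymal cells, 8 of 8 counted, summed to 259352 to 293269 CPM in caNrf2 and 281641 to 288748 CPM in ctrl libraries. Nrf2 is not a miRNA, so the counts hold no check of the mutant. In whole cultures, a change in the number of cells of a type and a change in RNA per cell cannot be told apart.

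Both miR-142a arms, miR-223-3p and miR-511-3p were higher in caNrf2 than in ctrl fibroblasts, each by more than 3-fold. miR-342-3p and miR-511-5p were above ctrl in every caNrf2 library but did not pass the test, and miR-150-5p had overlapping groups. Of the 8, 7 had enough counts to be tested, 4 of these were called higher and 0 lower. At an unadjusted p under 0.05, edgeR had 6 higher and 0 lower. The share of all tested miRNAs at that unadjusted level is not given, so unadjusted counts here and in the lists below have no background. The 6 include miR-511-5p, which passed the count filter through the group where it was higher. DESeq2 and limma-voom each called 4 higher and 0 lower after adjustment. Over all 697 tested miRNAs 25.7% were called, 14.1% as higher and 11.6% as lower. The 4 calls each exceeded 2-fold. Of all 697 tested miRNAs, 6.03% were called higher and exceeded 2-fold. Over the 7, log2 fold changes had a median of 1.74, against 0.03 over all tested miRNAs. Every caNrf2 library lay above every control for 7 of the 8, miR-223-5p included. The same held for 23.7% of all tested miRNAs, and 41.6% had groups without overlap in either direction.

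**Figure D1:**
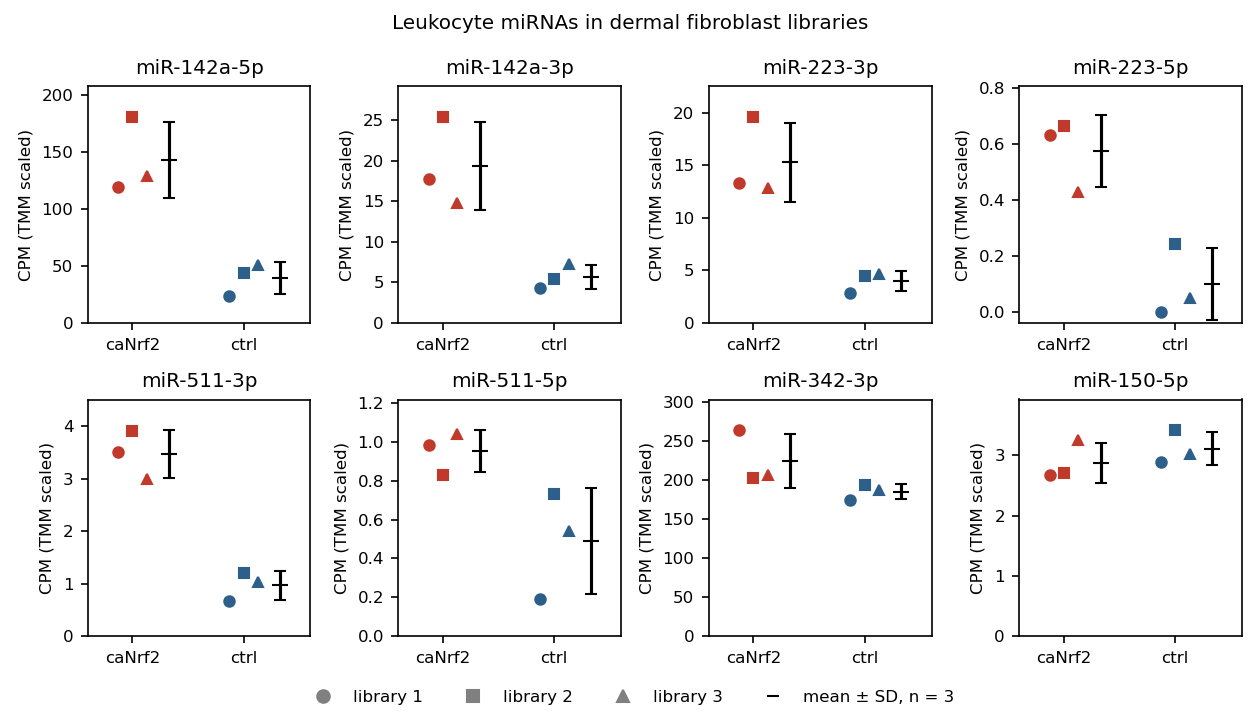
CPM (TMM scaled, linear axes) of the 8 leukocyte miRNAs in 3 caNrf2 and 3 ctrl libraries. Each marker is a library, its shape gives the replicate number, and bars are mean ± SD (n = 3). The groups overlap for miR-150-5p alone among the 8, and ctrl library 1 is the lowest control in every panel.

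miR-142a, made in all blood lineages, rose in both arms. miR-142a-5p had 119.7, 181 and 129 CPM in caNrf2 libraries 1, 2 and 3, against 23.9, 43.7 and 51.2 CPM in ctrl libraries 1, 2 and 3. Every caNrf2 library lay far above the highest control. The fitted log2 fold change was 1.85 ± 0.26 (SE; edgeR adjusted p = 7.25e-04; 3 of 3 caNrf2 libraries above every control). miR-142a-3p, the less frequent arm, had 17.8, 25.4 and 14.8 CPM in caNrf2 libraries, against 4.33, 5.48 and 7.31 CPM in ctrl libraries. Its log2 fold change was 1.74 ± 0.25 (SE; edgeR adjusted p = 7.90e-04). caNrf2 library 2 was the highest and ctrl library 1 the lowest for both arms. By mean CPM, miR-142a-5p ranked 203 of the 1907 names and miR-142a-3p 357.

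miR-223, the myeloid miRNA, rose in its main arm. miR-223-3p had 13.3, 19.6 and 12.9 CPM in caNrf2 libraries 1, 2 and 3, against 2.89, 4.50 and 4.64 CPM in ctrl libraries 1, 2 and 3. It ranked 8 of the 697 tested miRNAs by fold change, its log2 value being 1.90 ± 0.23 (SE; edgeR adjusted p = 2.90e-04). As for miR-142a, caNrf2 library 2 was the highest and ctrl library 1 the lowest. miR-223-5p, the rarely kept arm of the same hairpin, had 9, 16 and 12 counts in caNrf2 libraries, against 0, 4 and 1 in ctrl libraries. These make 37 counts in caNrf2 and 5 in ctrl, too few for the filter on low counts. The exact 95% binomial interval, which covers counting error only, was 0.220 to 0.742 CPM of the library total in caNrf2 library 3, the lowest of its group, and 0.0663 to 0.623 in ctrl library 2, the highest control. These overlap, so the gap between those libraries was not detectable at this depth. The intervals of caNrf2 libraries 1 and 2 began at 0.300 and 0.378, above the upper bound of 0.271 in ctrl library 3, and that of caNrf2 library 2 also began above the 0.353 of ctrl library 1. With no filter (1419 miRNAs tested) miR-223-5p came to 2.34 ± 0.68 on the log2 scale (SE; edgeR adjusted p = 0.00541). That p is not comparable with those of the main fit. Without the filter the edgeR adjusted p of miR-142a-5p fell from 7.25e-04 to 4.33e-36, at nearly the same fold change. Those of the other called leukocyte miRNAs fell too, and those of miR-511-5p, miR-342-3p and miR-150-5p rose.

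miR-511, the miRNA of the mannose receptor gene, rose in its 3p arm. miR-511-3p had 3.51, 3.91 and 3.01 CPM in caNrf2 libraries 1, 2 and 3, against 0.674, 1.22 and 1.04 CPM in ctrl libraries 1, 2 and 3. The 228 caNrf2 counts and 48 ctrl counts gave a log2 change of 1.77 ± 0.23 (SE; edgeR adjusted p = 4.80e-04). miR-511-5p had 0.982, 0.831 and 1.04 CPM in caNrf2 libraries, against 0.193, 0.730 and 0.543 CPM in ctrl libraries. The groups did not overlap, but its log2 fold change of 0.84 ± 0.37 (SE) did not pass (edgeR adjusted p = 0.120). It rested on 63 and 25 counts and reached the filter level of 0.540 CPM in 3 caNrf2 libraries and 1 ctrl library, so it was tested through the group where it was higher.

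The RefSeq promoter of Mrc1, from which miR-511 is transcribed, is printed because both miR-511 arms share this start. It covers chr2:14229164-14229463 (GRCm38.p6, plus strand), 250 bases before to 50 after the start, with matches to GAGGAA in capitals. GAGGAA is a core known to be bound by PU.1, a transcription factor of myeloid cells, and was searched on both strands.
Mrc1: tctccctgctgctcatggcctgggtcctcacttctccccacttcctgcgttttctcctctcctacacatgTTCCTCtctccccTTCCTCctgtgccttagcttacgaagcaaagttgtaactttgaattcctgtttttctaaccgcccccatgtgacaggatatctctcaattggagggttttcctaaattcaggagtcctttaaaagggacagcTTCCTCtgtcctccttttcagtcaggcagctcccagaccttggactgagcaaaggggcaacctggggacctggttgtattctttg
The promoter holds 3 matches, all on the minus strand. Of the 32851 promoters searched, 28.3% hold at least 1 match and 0.685% hold at least 3, the number found here. The level of 3 was taken from this promoter itself, so the 0.685% is no test, and binding by PU.1 was not tested. TGACNNNGC, the core of the antioxidant response element bound by Nrf2, had 0 matches on either strand of this window, and 12.4% of all promoters hold it. No promoter was searched for the transcripts of Mir142, Mir223 or Mir150. The promoters at 2 starts of Evl, the host of miR-342, were searched in the same way and held 1 and 0 matches to GAGGAA and 0 to TGACNNNGC.

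miR-342-3p was the most abundant of the leukocyte miRNAs. It had 264, 202 and 207 CPM in caNrf2 libraries 1, 2 and 3, against 175, 193 and 187 CPM in ctrl libraries 1, 2 and 3. The groups did not overlap, but the log2 fold change of 0.28 ± 0.11 (SE) did not pass (edgeR adjusted p = 0.104). Here caNrf2 library 1 was the highest and caNrf2 library 2 the lowest of its group, unlike for miR-142a and miR-223-3p. The other arm of the hairpin, miR-342-5p, had 91.9, 56.7 and 74.8 CPM in caNrf2 and 61.2, 48.1 and 57.8 CPM in ctrl libraries (log2 fold change 0.42 ± 0.18 (SE), edgeR adjusted p = 0.112), with caNrf2 library 1 again the highest.

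miR-150-5p, the lymphocyte miRNA, had 2.67, 2.70 and 3.26 CPM in caNrf2 libraries 1, 2 and 3, against 2.89, 3.41 and 3.01 CPM in ctrl libraries 1, 2 and 3. The groups overlapped, and the log2 fold change was -0.10 ± 0.17 (SE; edgeR adjusted p = 0.693). The 194 caNrf2 and 147 ctrl counts stood far above the floor, whereas the other arm, miR-150-3p, had 0 counts in caNrf2 and 1 in ctrl.

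Together the 8 miRNAs summed to 422, 437 and 371 CPM in caNrf2 libraries 1, 2 and 3, against 209, 253 and 255 CPM in ctrl libraries 1, 2 and 3. miR-342-3p made up 46.3% to 62.4% of their counts in caNrf2 libraries and 73.4% to 83.3% in ctrl libraries. Without it the other 7 summed to 186 ± 42.1 CPM in caNrf2 and 54.0 ± 17.1 CPM in ctrl libraries (SD, n = 3). That sum was highest in caNrf2 library 2, at 234 CPM, and lowest in ctrl library 1, at 34.9 CPM.

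The level of a miRNA in 1 library relative to the others of its group shows whether several members move together between cultures of the same genotype. ctrl library 1 was the lowest of the 3 controls for 8 of the 8 leukocyte miRNAs, while it was the lowest control for 35.9% of all tested miRNAs. Both arms of miR-142a, miR-223 and miR-511 are among the 8, so these are not 8 separate observations. In this library miR-223-5p had 0 and miR-511-5p 2 counts, under the floor of 3. For miR-150-5p its 95% binomial interval, 1.94 to 4.10 CPM of the library total, overlapped that of ctrl library 3, 2.27 to 3.80. For miR-142a-3p it overlapped that of ctrl library 2, 3.14 to 5.77 against 4.40 to 6.73. The same held for miR-223-3p, 1.94 to 4.10 against 3.53 to 5.65. It overlapped that of ctrl library 3 for miR-511-3p, 0.269 to 1.38 against 0.631 to 1.56. For miR-342-3p these were 166 to 182 and 178 to 190, also overlapping. For miR-142a-5p alone the interval of ctrl library 1, 20.9 to 26.9, lay below those of both other controls. The log2 CPM of ctrl library 1 lay below the ctrl mean by 0.66 for miR-142a-5p, 0.36 for miR-142a-3p, 0.43 for miR-223-3p and 0.44 for miR-511-3p. For miR-342-3p and miR-150-5p its log2 CPM was 0.08 and 0.10 under that mean. Among the caNrf2 libraries, library 2 was the highest for 5 of the 8, against 35.3% of all tested miRNAs. The 5 are both arms of miR-142a, both of miR-223 and miR-511-3p. For miR-223-5p the margin was small, 0.665 CPM against 0.631 CPM in caNrf2 library 1. The deviations of caNrf2 library 2 from the caNrf2 mean were 0.36 for miR-142a-5p, 0.43 for miR-142a-3p, 0.39 for miR-223-3p and 0.17 for miR-511-3p on the log2 scale. For miR-342-3p and miR-150-5p they were -0.14 and -0.08. ctrl library 1 was also the library with the lowest total. Thinning every library to 10443268 counts kept the same 4 calls. With 3 libraries a group, no correlation within a group was computed, and none was pooled over the groups.

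**Figure D2:**
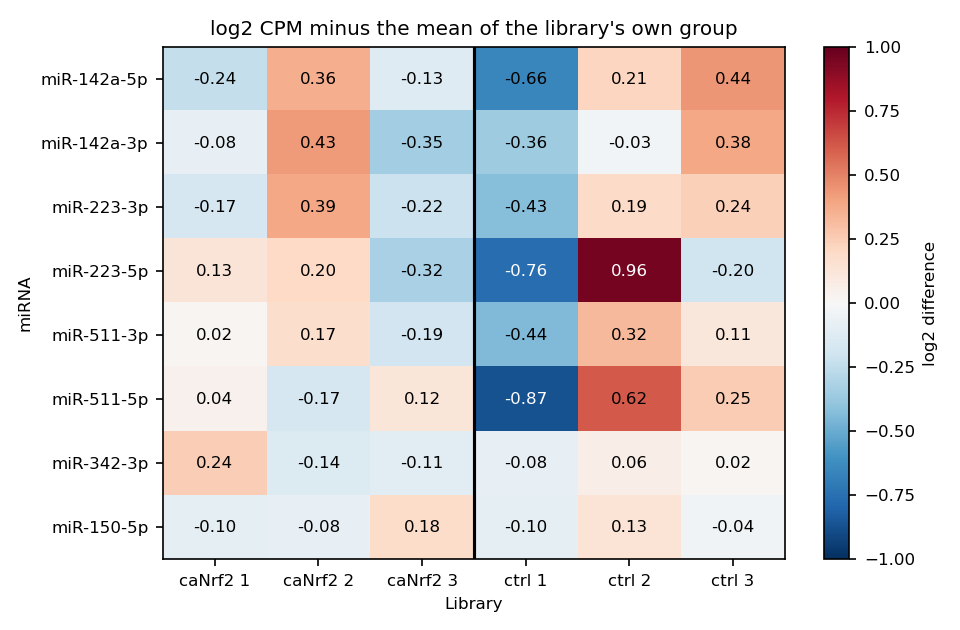
Deviation of log2 CPM (prior count 2) from the mean of the library's own group, for 8 miRNAs (rows) and 6 libraries (columns, caNrf2 left and ctrl right of the line). Red is above and blue below the group mean. ctrl library 1 is below its group mean in every row, and caNrf2 library 2 is above it in 5 rows, those of miR-142a, miR-223 and miR-511-3p.

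Ratios of counts within a library do not depend on scaling. Over the 6 libraries, miR-142a-3p itself spanned 5.87-fold in CPM and miR-223-3p 6.79-fold, whereas the ratio of miR-223-3p to miR-142a-3p (0.5 added to each count) spanned 1.37-fold. Both CPM spans include the difference between the genotypes, so similar fold changes alone would narrow the ratio. The ratio of miR-223-3p to miR-142a-3p was 0.749, 0.771 and 0.870 in caNrf2 libraries 1, 2 and 3, against 0.670, 0.823 and 0.636 in ctrl libraries 1, 2 and 3. The ratio of miR-511-3p to miR-142a-3p was 0.198, 0.154 and 0.204 in caNrf2 libraries, against 0.165, 0.227 and 0.145 in ctrl libraries. The groups overlapped for both ratios, with log2 differences of 0.17 and 0.07 (two-sided exact permutation p = 0.3 and 0.9, n = 3 each). The ratio of the miR-142a arms, 5p over 3p, was 6.71, 7.12 and 8.71 in caNrf2 libraries, against 5.46, 7.94 and 6.99 in ctrl libraries, and the groups overlapped again (log2 difference 0.15, exact permutation p = 0.5).

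The ratios of miR-342-3p and miR-150-5p to miR-142a-3p separated the genotypes. miR-342-3p had 14.8, 7.95 and 13.9 counts for each count of miR-142a-3p in caNrf2 libraries 1, 2 and 3, against 39.8, 35.1 and 25.5 in ctrl libraries 1, 2 and 3. miR-150-5p had 0.151, 0.107 and 0.221 in caNrf2 libraries, against 0.670, 0.624 and 0.414 in ctrl libraries. The log2 differences were -1.48 and -1.87, each with an exact permutation p = 0.1 (two-sided), and a design of 3 against 3 libraries cannot give a smaller one. Adjusted over the 9 ratios compared, both had an exact permutation p of 0.45, so the difference in response between miR-150-5p or miR-342-3p and miR-142a-3p did not pass a test. The ratio of the miR-511 arms, 5p over 3p, was 0.287, 0.217 and 0.349 in caNrf2 libraries, against 0.333, 0.610 and 0.535 in ctrl libraries (log2 difference -0.77, exact permutation p = 0.2), with overlap between 0.333 and 0.349. The remaining ratios, those of miR-223-5p and miR-511-5p, rested on counts down to 0 and 2, and their groups overlapped (exact permutation p from 0.3 to 0.4).

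**Figure D3:**
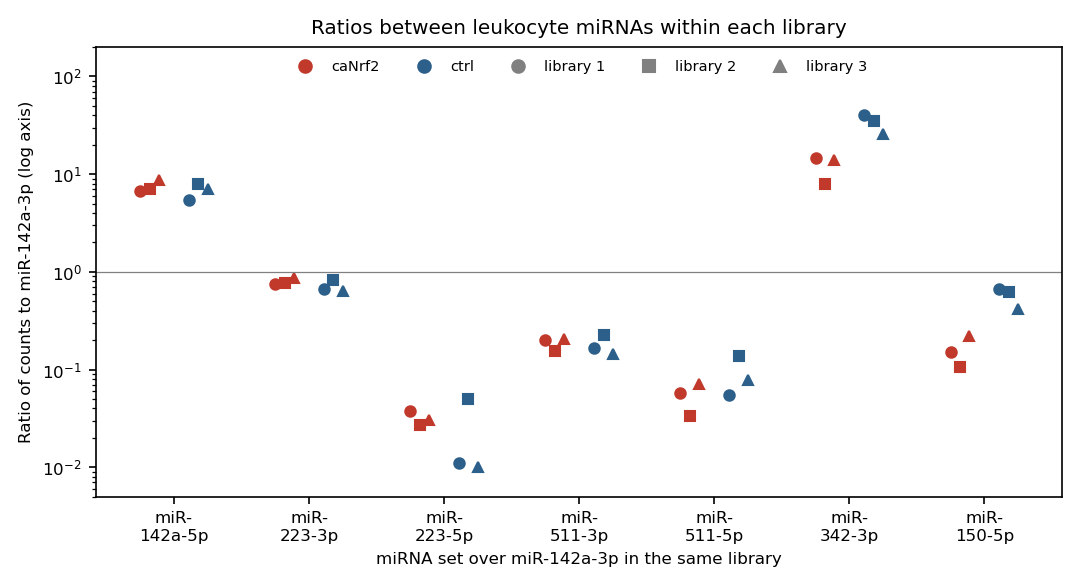
Ratio of each miRNA's count to that of miR-142a-3p in the same library (0.5 added to both, logarithmic axis), caNrf2 left of ctrl for each miRNA. The groups overlap for miR-142a-5p, miR-223-3p, miR-223-5p, miR-511-3p and miR-511-5p, and caNrf2 lies below ctrl for miR-342-3p and miR-150-5p.

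Likeness to miR-142a-3p was measured as the root mean square difference of log2 CPM profiles over the 6 libraries, each profile centred on its own mean. It was 0.15 for miR-223-3p, 0.21 for miR-142a-5p and 0.22 for miR-511-3p, and 0.61, 0.81 and 0.99 for miR-511-5p, miR-342-3p and miR-150-5p. Among the 368 others that averaged 10 CPM or more, the 5 nearest were miR-375-3p (0.31), miR-129-5p (0.31), miR-129-2-3p (0.34), miR-672-5p (0.39) and miR-1948-3p (0.41). All 5 were called higher in caNrf2. Centring on the mean of all 6 libraries keeps the difference between the genotypes in each profile. A small value therefore mostly reflects a similar fold change, and does not show that miRNAs move together within a genotype. The limit of 10 CPM was not applied to the leukocyte miRNAs. miR-375-3p, known from endocrine cells, had 15.2, 20.0 and 22.1 CPM in caNrf2 libraries 1, 2 and 3, against 5.01, 6.21 and 8.64 CPM in ctrl libraries 1, 2 and 3. Like miR-142a-3p it was lowest in ctrl library 1, but caNrf2 library 1 was its lowest caNrf2 value. miR-129-5p, known from neural tissue, had 92.6, 90.9 and 98.5 CPM in the ctrl libraries, so ctrl library 1 did not stand below the other two for it.

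Of 13 other listed miRNAs known from leukocytes, 8 were tested, and 1, miR-146a-5p, rose and 0 fell with edgeR (3 higher and 0 lower at an unadjusted p under 0.05), while 14.1% of all tested miRNAs were called higher. The median log2 fold change of the 8 was 0.34. miR-146a-5p, a brake on NF-kappaB signalling made by leukocytes and by many stimulated cells, had 37.1, 40.2 and 32.3 CPM in caNrf2 libraries 1, 2 and 3, against 20.6, 18.1 and 20.98 CPM in ctrl libraries 1, 2 and 3. Its log2 fold change was 0.88 ± 0.14 (SE; edgeR adjusted p = 0.00167), and unlike the 8, it was not lowest in ctrl library 1. miR-155-5p, induced in activated macrophages and lymphocytes, had 183, 164 and 182 CPM in caNrf2 libraries, against 171, 202 and 140.0 CPM in ctrl libraries (log2 fold change 0.05 ± 0.13 (SE), edgeR adjusted p = 0.827). miR-155-3p and miR-146b-3p had log2 fold changes of 0.64 ± 0.30 and 0.72 ± 0.31 (SE; edgeR adjusted p = 0.147 and 0.120). miR-146b-3p had 0.84, 0.75 and 0.93 CPM in caNrf2 libraries, against 0.48, 0.61 and 0.44 CPM in ctrl libraries. With a filter level of 0.540 CPM, it was tested through the group where it was higher. The listed miRNAs summed to 413 to 485 CPM in caNrf2 and 364 to 427 CPM in ctrl libraries, and these ranges overlapped.

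Lists of miRNAs known from other cell types that skin cultures could hold were read from the same fit. Over all tested miRNAs, 14.1% were called higher and 11.6% lower. Of the erythroid list, 3 of 6 tested miRNAs rose and 0 fell with edgeR, the median log2 fold change being 0.46. At an unadjusted p under 0.05, 4 were higher and 2 lower. The 3 that rose were miR-486a-5p, miR-486a-3p and miR-486b-5p, which are also made in muscle. miR-486a-5p and miR-486b-5p are the same arm of near-identical hairpins, so their separate counts are uncertain. miR-486a-5p rose by 0.47 ± 0.09 on the log2 scale (SE; edgeR adjusted p = 0.00469). The defining red cell miRNA miR-451a had 3.65, 4.70 and 3.19 CPM in caNrf2 libraries, against 2.22, 2.68 and 3.21 CPM in ctrl libraries (log2 fold change 0.48 ± 0.20 (SE), edgeR adjusted p = 0.114). Its cluster partner miR-144-3p had a log2 fold change of the other sign, -0.998 ± 0.389 (SE; edgeR adjusted p = 0.0873), from 32 caNrf2 and 46 ctrl counts. It had 0.281, 0.623 and 0.465 CPM in caNrf2 libraries, against 0.770, 0.669 and 1.33 CPM in ctrl libraries. With a filter level of 0.540 CPM, miR-144-3p was tested through the ctrl group, where it was higher. miR-144-5p, the other arm of that hairpin, had 4, 18 and 7 counts in caNrf2 libraries 1, 2 and 3, against 10, 7 and 43 counts in ctrl libraries 1, 2 and 3. These overlapped, and its log2 fold change of -1.49 ± 0.59 (SE) did not pass (edgeR adjusted p = 0.0938), though it passed as lower in 3 of 13 alternatives. The erythroid list summed to 669 to 805 CPM in caNrf2 and 479 to 559 CPM in ctrl libraries.

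In the muscle list, 5 of 5 tested miRNAs rose, while 14.1% of all tested miRNAs were called higher. The median log2 fold change of the 5 was 1.05. miR-133a-3p, a miRNA of muscle cells, had 534, 595 and 712 CPM in caNrf2 libraries, against 330.0, 407 and 377 CPM in ctrl libraries. miR-499-5p, made from a myosin gene, had the largest log2 fold change of the 5, 1.20 ± 0.18 (SE; edgeR adjusted p = 9.97e-04). miR-1a-3p, the most typical miRNA of muscle fibres, had 16 counts in caNrf2 and 9 in ctrl. The list summed to 564 to 747 CPM in caNrf2 and 347 to 426 CPM in ctrl libraries.

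Of the epithelial list, 0 of 8 tested miRNAs were called by edgeR (1 at an unadjusted p under 0.05), and sums ran from 1661 to 2205 CPM in caNrf2 and from 1081 to 1932 CPM in ctrl libraries. miR-205-5p, the keratinocyte miRNA that held most of that sum, came to 0.54 ± 0.19 on the log2 scale (SE; edgeR adjusted p = 0.0590) and passed in 6 of 15 alternatives, DESeq2 (adjusted p = 0.0209) among them. Of the endothelial list, both tested miRNAs, miR-126a-3p and miR-126a-5p, did not pass with edgeR, DESeq2 or limma-voom, nor at an unadjusted p under 0.05 (log2 fold changes 0.17 ± 0.14 and 0.23 ± 0.15 (SE), edgeR adjusted p = 0.389 and 0.295). In the neural and melanocyte list, 2 of 5 tested miRNAs rose, miR-9-5p and miR-338-3p, while 14.1% of all tested miRNAs were called higher. These 2 calls were lost in 4 of 14 and 3 of 15 alternatives. In the fibroblast list, 4 of 8 fell (miR-199a-5p, miR-199a-3p, miR-152-3p and miR-10b-5p), against 11.6% of all tested miRNAs, and 0 rose with edgeR. The median log2 fold change of the 8 was -0.34. At an unadjusted p under 0.05, 2 were higher, miR-143-3p and miR-145a-5p. They passed after adjustment in 7 of 14 and 2 of 15 alternatives. Whether other cell types in the cultures have a part in the rise of the leukocyte miRNAs was not tested.

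**Figure D4:**
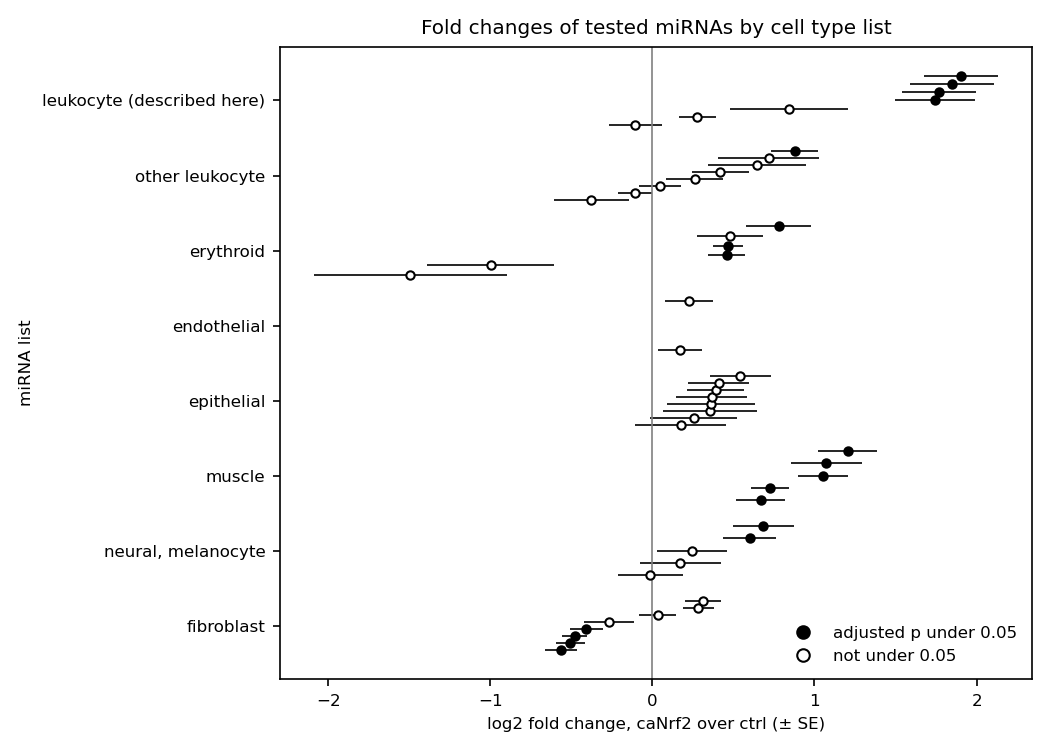
log2 fold change of caNrf2 over ctrl (± SE from edgeR, n = 3 per group) for each tested miRNA of the 8 lists, filled where the adjusted p is under 0.05. The 4 called leukocyte miRNAs lie between 1.74 and 1.90, above every other tested miRNA shown, of which miR-499-5p is the nearest at 1.20.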

How the data were processed

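The authors deposited 1 table for each of 6 libraries, holding unnormalized read counts by mature miRNA name. Build mm10 and the tools edgeR, featureCounts, Bowtie, cutadapt and CASAVA 1.8 appear in the submitters' processing notes. Settings, strand handling, the treatment of reads that fit several places and the miRNA annotation version were not given in the sources used here. No molecular identifiers are named, so intervals cover counting error only. Library totals are 10443268 to 28237159.

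The test was that of edgeR 4.0.16 under R 4.3.3 (TMM, filterByExpr at a minimum count of 10, glmQLFit and glmQLFTest with group as the only term), adjusted over all tested miRNAs. SEs come from the F statistic. Log2 CPM profiles used a prior count of 2. Ratios were compared by exact permutation. Libraries of a group differed by a chi-square of at least 100.8 per degree of freedom, so none was a copy. Sequences are RefSeq's and positions GENCODE M21's.

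The miRNAs and lists were chosen with earlier results of these data known. Named were the 8 miRNAs, up to 4 of each list by smallest p, and the 5 nearest miR-142a-3p. Outside that rule, after their values were seen, miR-155-5p, miR-1a-3p and miR-451a were named as defining markers, and miR-144-5p, miR-143-3p, miR-145a-5p and miR-214-3p because an alternative called them. Alternatives were other scalings, filters and tools (DESeq2 1.42.0, limma-voom 3.58.1), a replicate block, thinning and leaving out each library.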

Additional observations from a re-analysis of the deposited data

How the results depend on the processing

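The 4 calls among the leukocyte miRNAs (miR-142a-5p, miR-142a-3p, miR-223-3p and miR-511-3p) held in every alternative that tested them, with the highest adjusted p from 0.00221 (miR-223-3p) to 0.00671 (miR-142a-3p). Without any one library, 4 to 5 of the 8 were called higher and 0 lower. The fifth was miR-223-5p, which passed the count filter without caNrf2 library 3 (edgeR adjusted p = 0.0393), ctrl library 1 (0.0451), ctrl library 2 (0.0127) or ctrl library 3, where it was not called (0.112). Among all 6 libraries, miR-223-5p reached the filter level of 0.540 CPM in 2 caNrf2 and 0 ctrl libraries. It was therefore tested through the group where it was higher. At a mean of at least 10 CPM, 2 of the 8 were called because miR-223-3p and miR-511-3p were among those left untested, and over all miRNAs 60 were higher in place of 98. miR-511-5p, miR-342-3p and miR-150-5p passed in no alternative (adjusted p from 0.0817 to 0.311, 0.0652 to 0.294 and 0.475 to 0.927). miR-342-5p passed with no filter (0.0236), with the replicate block (0.0434) and without caNrf2 library 2 (0.0324), and miR-155-3p without ctrl library 2 (0.0214). Among the other lists, calls were lost without 1 library for miR-486a-3p (caNrf2 2, ctrl 2 or ctrl 3, adjusted p from 0.0535 to 0.0667), miR-486b-5p (caNrf2 3, 0.0868), miR-9-5p (ctrl 1 or any caNrf2 library, 0.0527 to 0.0687), miR-338-3p (caNrf2 2 or 3 or ctrl 1, 0.0644 to 0.0818) and miR-199a-3p (caNrf2 1 or ctrl 3, 0.0608 and 0.0611). Calls were gained as higher by miR-205-5p in 6 alternatives (4.90e-06 to 0.0445), miR-143-3p in 7 (0.00696 to 0.0467, limma-voom and the replicate block among them), miR-203-3p with no filter (0.0229) and without caNrf2 library 1 (0.0271), miR-145a-5p with no filter (0.0383) and with the 10 CPM filter (0.0483), and miR-183-5p with no filter (0.0295). Calls were gained as lower by miR-144-5p with no filter (0.00137) and without caNrf2 library 2 (0.0443) or ctrl library 2 (0.0288), and by miR-214-3p without caNrf2 library 1 (0.0259). Adjusted p from the fit with no filter are not comparable with those of the main fit. For miR-142a-5p the edgeR adjusted p was 7.25e-04 in the main fit and 4.33e-36 with no filter.

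The log2 ratio of miR-511-3p to miR-142a-3p, 0.07 over all libraries, changed sign without caNrf2 library 3 (-0.0044) or ctrl library 3 (-0.0697), and ranged from -0.07 to 0.25 without any one library. The summed level of the 8 was 410.1 CPM in caNrf2 and 239 CPM in ctrl libraries. It was 247 and 194 CPM without the miR-142a arms, and 186 and 54.0 CPM without miR-342-3p, a sum chosen after seeing the data. Replicate numbers were not taken to pair the libraries. Deviations of the same-numbered libraries correlated at 0.18, 0.11 and -0.22 over miRNAs, and caNrf2 library 2 correlated more with ctrl library 3 (0.36). With 3 libraries a group, these values cannot exclude a pairing. With the replicate block 4 of the 8 were called higher, and 102 miRNAs were higher and 87 lower over all. Depth limits miR-223-5p and miR-511-5p most.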
